A study of Mus musculus with 6 samples.

Results

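The genes examined here encode the subunits of the proteasome, with its activators, its inhibitor and the chaperones that assemble it. They were taken by name from the expression table, as every name made of PSM, 1 letter from A to G and a number, and 46 of the 7834 gene names qualified. By name they fall into 7 genes of the core alpha ring, 10 of the core beta ring, 6 ATPases, 14 genes that are mostly of the lid, 4 activators, 1 inhibitor and 4 assembly chaperones. B-1 cells that carry CD5 (B-1a) or lack it (B-1b) were sorted from the peritoneal cavity of wild-type C57BL/6 mice given no treatment, and their poly-A RNA was sequenced, so the groups share strain, tissue and genotype and by the labels differ only in the subset sorted. Male mice were used throughout, while no source used here gives the age of the mice that gave RNA or any pooling of animals. The labels give 3 replicates per group, but in all 112 rows of these genes B-1b replicate 3 repeated B-1b replicate 1 and B-1a replicate 3 was the mean of B-1a replicates 1 and 2. The comparison therefore rests on 2 libraries per group. Nothing says that they came from separate animals, so p-values measure only the spread between these libraries.

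The proteasome degrades proteins that carry chains of ubiquitin. Its core particle is a barrel of stacked alpha and beta rings with the cutting sites inside, and a regulatory particle on its end binds the tagged protein, removes the ubiquitin and unfolds the chain with a ring of ATPases. In cells of the immune system and in cells exposed to interferon, the cutting subunits are partly replaced by those of the immunoproteasome, which favors peptides that fit MHC class I molecules.

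The deposited table is named as raw read counts, but its values are not whole numbers and were read as FPKM, fragments per kilobase of transcript scaled to the size of the library, so that levels of different genes can be set side by side. The summed FPKM of the libraries ranged from 324330 to 366992, and sequencing depth is unknown. Cd5, the sorting marker, was at 0.446 and 0.757 FPKM in the B-1a libraries and at 0.895 and 0.737 FPKM in the B-1b libraries, so it did not separate the groups and these are named by their labels. All 5 listed B cell markers were present, with summed FPKM from 3388 to 3956. Of 8 macrophage markers 7 were in the table, none was at 0 in all libraries, and all 7 had a log2 fold change above 0, with summed FPKM of 4757 and 3566 in B-1a and 4437 and 7529 in B-1b, most of it from Lyz2. For 5 of the 7 both B-1b libraries lay above both B-1a libraries (25.8% of all genes tested), and 3 (Adgre1, Csf1r and Cd68) were under an unadjusted p of 0.05 in limma (9.66% of all genes) with none called after adjustment, as with Adgre1 at 51.1 and 56.0 FPKM in the B-1a libraries against 90.4 and 101 FPKM in those of B-1b. Of 4 mast cell markers 3 were in the table, with summed FPKM from 90.8 to 91.8 in B-1a and from 97.5 to 154 in B-1b, and the 4 T cell markers in the table, of 6 listed, summed to between 8.35 and 12.3 FPKM in all libraries. The 5 B-1 markers in the table, of 6 listed, summed to 33.6 and 49.7 FPKM in the B-1a libraries against 81.5 and 99.6 FPKM in those of B-1b, with Itgam, Cd9 and Bhlhe41 higher without overlap. The 3 B-2 markers, mostly Ighd, summed to 446 and 341 FPKM in the B-1a libraries against 234 and 254 FPKM in those of B-1b, and the 5 plasma cell markers to 357 and 381 FPKM against 241 and 380.1 FPKM. Of these, Itgam, Bhlhe41 and Ighd were under an unadjusted p of 0.05 in limma and none was called. The part of these other cells in the levels below was not tested, and in bulk RNA fewer cells of a type and less RNA per cell cannot be told apart.

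Proteasome subunit genes were among the more abundant transcripts of both subsets. The 45 genes that passed the filter of at least 1 FPKM in 2 of 4 libraries had a median level of 63.2 FPKM, against 13.2 FPKM over the 7557 genes tested. The highest were Psmb8, at 247 FPKM over the 4 libraries, and Psmb3, at 246 FPKM, both subunits of the beta ring. The lowest that passed was Psme4, a large activator of the core, at 6.10 FPKM. The remaining member, Psmd9, a chaperone of the ATPase ring, was at 0.198 and 0.414 FPKM in the B-1a libraries against 0.209 and 0.476 FPKM in those of B-1b, and was not tested. Together the 46 genes made up 1.09% ± 0.0482 of the summed FPKM in B-1a libraries and 1.08% ± 0.0701 in B-1b libraries (SD, n = 2 per group), which is less apart than replicates are.

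**Figure D1:**
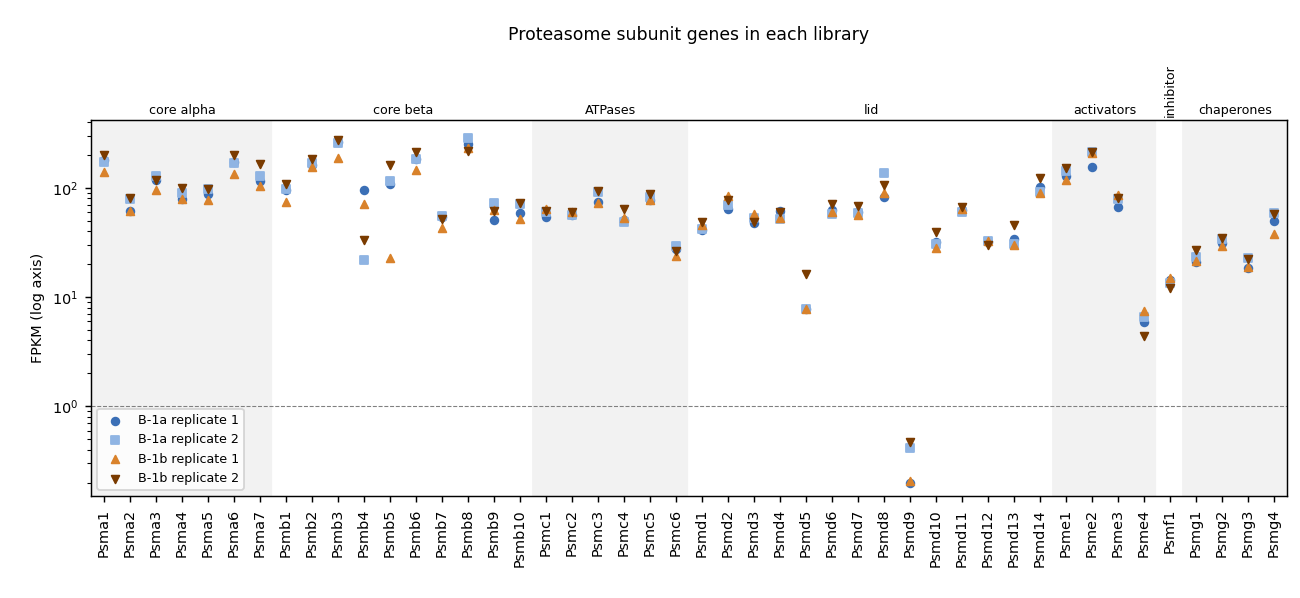
FPKM of the 46 proteasome subunit genes (log axis) in the 4 libraries, ordered by subcomplex, with 1 symbol per library. Psmd9 lies below the dashed line at 1 FPKM, and Psmb4 and Psmb5 are the genes of the beta ring with the widest spread.

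No proteasome gene passed the test between the subsets. On log2(FPKM + 1), limma gave 0 of the 45 genes an adjusted p below 0.05, against 15 of all 7557 genes (0.198%), of which 12 were higher in B-1b (0.159%) and 3 lower (0.0397%). At an unadjusted p under 0.05 it gave 0 of the 45, against 9.66% of all genes tested. Fitted gene by gene, with no spread shared between genes, the linear model also called 0 genes after adjustment, and in it Psmc2 and Psmd1 were among the 657 of 7557 genes under an unadjusted p of 0.05. The smallest adjusted p from limma was 0.616, for Psmd2. The 95% confidence interval of the log2 fold change (B-1b relative to B-1a) stayed within -1 and 1 for 42 of the 45 genes, and the exceptions were Psmb4, Psmb5 and Psmd5. The 45 genes had a median log2 fold change of 0.02, with 24 above 0 and 21 below, against a median of 0.05 over all genes tested, of which 56.2% were above 0. Both B-1b libraries lay above both B-1a libraries for 7 of the 45 genes, where the share over all genes was 25.8%, and below both for 4, where it was 17.3%.

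The core particle differed more between the B-1b libraries than between the subsets. Of its 17 genes, 15 had B-1b replicate 1 below both B-1a libraries (33.8% of all genes tested), and 11 had B-1b replicate 2 above both (43.9% of all genes). For 11 of the 17 both held, so that the B-1b libraries lay on opposite sides of the B-1a libraries, against 10.3% of all genes. The median difference from the B-1a mean on the log2 scale was -0.32 in B-1b replicate 1 and 0.16 in B-1b replicate 2, where all genes had medians of 0.07 and 0.07. The median log2 fold change of the core genes, -0.08 with both libraries, was 0.16 when B-1b replicate 1 was left out and -0.32 when replicate 2 was, and the number of core genes above 0, which was 6 of 17, became 13 and 2. The direction of the core genes thus depended on which B-1b library was used. The sum of the macrophage markers, mostly Lyz2, was also highest in B-1b replicate 2, at 7529 FPKM. The markers differed in this, as Lyz2, Adgre1, C1qa and C1qb were higher in B-1b replicate 2 than in B-1b replicate 1. Csf1r (39.7 and 35.1 FPKM in replicates 1 and 2), Cd68 (53.2 and 52.7 FPKM) and C1qc (20.1 and 8.46 FPKM) were lower. The part of these markers in the core levels was not tested.

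**Figure D2:**
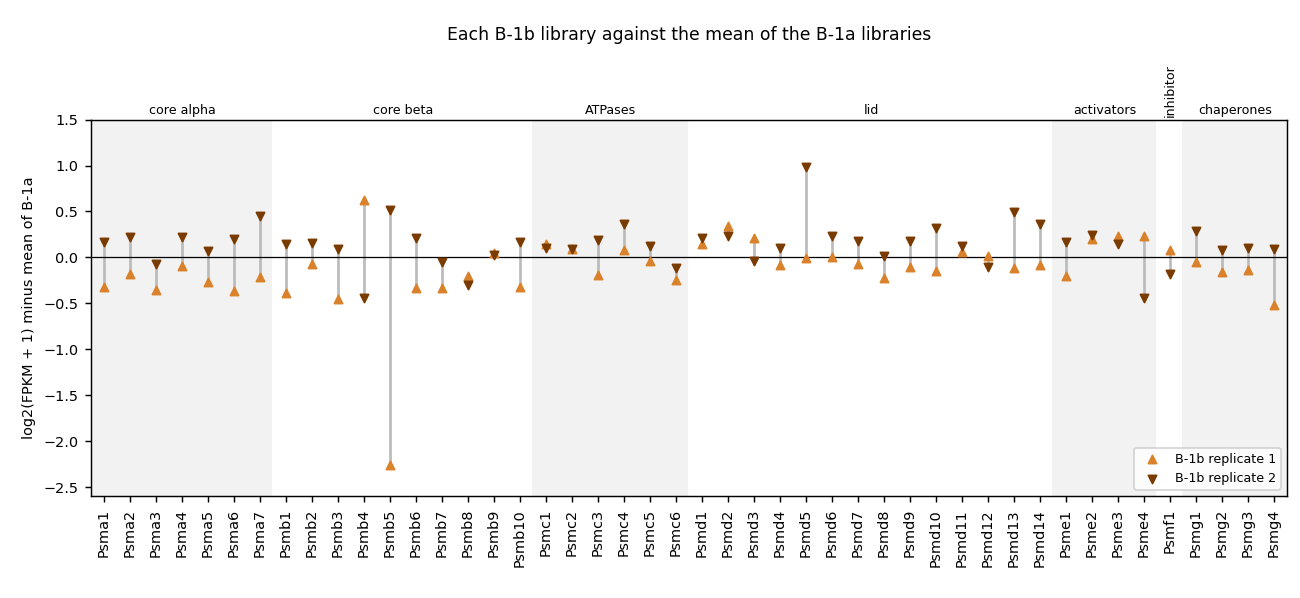
Difference of each B-1b library from the mean of the B-1a libraries on log2(FPKM + 1), by gene and subcomplex, with a grey line joining the libraries. In the core, replicate 1 lies below 0 for 15 of 17 genes and replicate 2 above 0 for most, and Psmb5 shows the widest gap. The regulatory particle has medians of -0.01 in replicate 1 and 0.18 in replicate 2.

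The alpha subunits form the outer rings of the core, which gate the entry of the chain. Psma1 was the highest of them, at 179 and 172 FPKM in the B-1a libraries against 140.4 and 198 FPKM in those of B-1b. Psma6 showed the same order, at 173 and 169 FPKM in the B-1a libraries against 133 and 197 FPKM in those of B-1b. In both genes the B-1a libraries agreed closely and lay between those of B-1b. Psma2, the lowest, was at 61.2 and 79.1 FPKM in the B-1a libraries against 61.2 and 81.1 FPKM in those of B-1b, which overlap. Psma3 was the only alpha gene whose groups did not overlap, at 118 and 128 FPKM in the B-1a libraries against 95.7 and 117 FPKM in those of B-1b (log2 fold change -0.21 with a standard error of 0.17, limma adjusted p = 0.720). All 7 genes were higher in B-1b replicate 2 than in B-1b replicate 1, against 50.5% of all genes tested, with Psma7 going from 104 to 166 FPKM. Summed over the ring, the level was 814 and 863 FPKM in the B-1a libraries against 691 and 955 FPKM in those of B-1b.

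Of the non-catalytic beta subunits, Psmb3 was at 263 and 255 FPKM in the B-1a libraries against 189 and 276 FPKM in those of B-1b. Psmb1 was at 95.7 and 97.8 FPKM in the B-1a libraries against 73.7 and 107 FPKM in those of B-1b, so that both genes followed the order of the alpha ring. Psmb4 did not, at 94.8 and 21.9 FPKM in the B-1a libraries against 71.5 and 33.5 FPKM in those of B-1b. In it the replicates numbered 1 were high and those numbered 2 low in both subsets, and the interval of its log2 fold change ran from -2.17 to 2.36.

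The catalytic sites of the core sit on 3 beta subunits, each with a counterpart in the immunoproteasome. Psmb5 cuts after hydrophobic residues, Psmb6 after acidic and Psmb7 after basic ones, and Psmb8, Psmb9 and Psmb10 take their places. Psmb8, on chromosome 17 of GRCm38 from 34197721 to 34201454 within the MHC region, was at 253 and 283 FPKM in the B-1a libraries against 232 and 217 FPKM in those of B-1b. Both B-1b libraries lay below both B-1a libraries, with a log2 fold change of -0.25 (standard error 0.16, 95% interval -0.68 to 0.18), and limma gave an adjusted p of 0.678. This was the smallest p among the members with lower values in B-1b. Psmb8 was also 1 of only 3 core genes, with Psmb4 and Psmb9, that were not higher in B-1b replicate 2 than in B-1b replicate 1.

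Psmb5, on chromosome 14 from 54614119 to 54618022, had the widest interval of all members tested. It was at 107 and 116 FPKM in B-1a, at 22.5 FPKM in B-1b replicate 1 and at 160.2 FPKM in B-1b replicate 2. The B-1b libraries thus differed 7.11-fold and enclosed the B-1a values. The log2 fold change of -0.87 had a standard error of 0.98 and an interval from -3.56 to 1.82. It was 0.52 without B-1b replicate 1 and -2.26 without the other. GENCODE M21 names 1 pseudogene after Psmb5, and Psmb6 and Psmb7 also have pseudogenes named after them. Whether the authors' quantification split reads with these pseudogenes was not tested.

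Psmb9, close to Psmb8 on chromosome 17 (34181987 to 34187764), was at 50.3 and 73.1 FPKM in the B-1a libraries against 62.5 and 61.7 FPKM in those of B-1b, with the B-1b libraries between those of B-1a. It overlaps Tap1 on the other strand, and no source used here says whether the counting used strand. Psmb6, its constitutive counterpart, was at 184 and 185 FPKM in the B-1a libraries against 147 and 213 FPKM in those of B-1b. Psmb10 was at 58.5 and 70.8 FPKM in the B-1a libraries against 51.4 and 72.2 FPKM in those of B-1b, which overlap. Psmb7 was at 53.7 and 54.6 FPKM in the B-1a libraries against 42.7 and 52.2 FPKM in those of B-1b, both below B-1a (log2 fold change -0.19 with a standard error of 0.17, limma adjusted p = 0.732).

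The immunoproteasome subunits made up about as much of the catalytic transcripts as the constitutive ones in both subsets. Psmb8, Psmb9 and Psmb10 together were at 362 and 427 FPKM in the B-1a libraries against 346 and 351 FPKM in those of B-1b, and Psmb5, Psmb6 and Psmb7 together at 345 and 356 FPKM in the B-1a libraries against 212 and 426 FPKM in those of B-1b. The immunoproteasome share was 51.2% and 54.6% in B-1a and 62.0% and 45.2% in B-1b, or 52.9% ± 2.38 against 53.6% ± 11.9 (SD, n = 2 per group), and the B-1b libraries lay further apart than the groups. Within the pairs, Psmb8 exceeded Psmb5 by 2.36-fold and 2.44-fold in B-1a and by 10.3-fold and 1.36-fold in B-1b. Psmb9 was at 0.274 and 0.395 of the level of Psmb6 in B-1a and at 0.426 and 0.289 in B-1b. Psmb10 was at 1.09 and 1.30 times Psmb7 in B-1a and at 1.20 and 1.38 times in B-1b. So the pair of Psmb8 and Psmb5 favored the immunoproteasome subunit in all 4 libraries, that of Psmb9 and Psmb6 the constitutive one in all 4, and the groups overlapped in each pair. With 2 libraries per group an exact two-sided permutation test gives p = 0.333 at the least, and these ratios are given as values without a test.

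**Figure D3:**
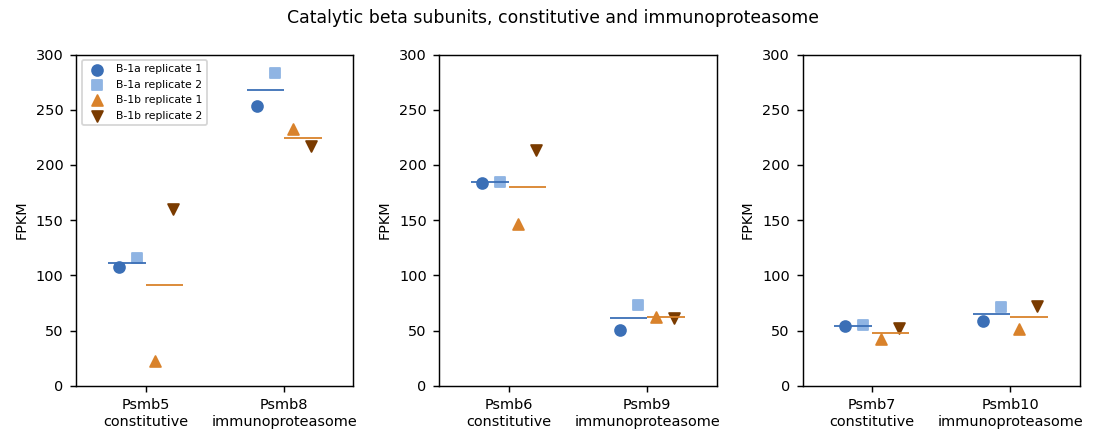
FPKM of each constitutive catalytic subunit and its immunoproteasome counterpart, with 1 symbol per library and a line at the mean of each group (n = 2). Psmb8 lies lower in both B-1b libraries than in both B-1a libraries, and Psmb5 ranges from 22.5 to 160.2 FPKM within B-1b.

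The promoters of these genes were searched on both strands for letters known from binding sites. The first pattern, TGACNNNGC, is known from sites of NFE2L1 and NFE2L2, of which NFE2L1 drives proteasome genes when degradation is impaired. The other, GAAA, any 2 bases, GAAA, is known from sites of interferon regulatory factors. RefSeq promoters of GRCm38.p6, from 250 bases before to 50 after the start, were found for 39 of the 46 genes. TGACNNNGC stood in those of 6 genes (Psmb5, Psmb6, Psmc6, Psmd9, Psmd12 and Psme4), or 15.4%, against 14.0% of all 27025 symbols. The other pattern stood in 5 (Psmb3, Psmd4, Psmd9, Psme1 and Psmg4), or 12.8%, against 3.99%. The matches of the first pattern in constitutive catalytic subunits, shown because the level of Psmb5 varied most, read as follows from 5′ to 3′ on the strand of the gene, with the match in capitals. Their first capital lies 47 and 9 bases before the RefSeq start.
Psmb5 (chr14:54618023-54618052, minus strand): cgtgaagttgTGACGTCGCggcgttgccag
Psmb6 (chr11:70525338-70525367, plus strand): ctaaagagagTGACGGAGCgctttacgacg
The constitutive subunits Psmb5 and Psmb6 share the first pattern, and the promoter of Psmb7 was not among the 39. Such a match is a description of letters and not of binding.

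Most genes grouped with the regulatory particle had a mean log2 level slightly higher in B-1b, by amounts that did not pass the test. Of these 19 genes tested, 15 had a log2 fold change above 0 (56.2% of all genes tested). The median of the 19 was 0.09, against 0.05 over all genes. Among the 15 were the assembly chaperones Psmd5 (0.49) and Psmd10 (0.09), grouped here by name. Adrm1 (-0.24) and Sem1 (-0.18), subunits whose names fall outside the rule, were not counted. Both B-1b libraries lay above both B-1a libraries for 6 of the 19 and below for 1, where the shares over all genes were 25.8% and 17.3%. Without B-1b replicate 2 the number above 0 was 9 of 19, with a median of -0.01. With libraries scaled to equal upper quartiles, which moved the median of all genes to 0.01, it was 13 of 19 with a median of 0.04.

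Among the ATPases, which form the unfolding ring, Psmc4 had the smallest p. It was at 50.8 and 48.9 FPKM in the B-1a libraries against 52.7 and 64.1 FPKM in those of B-1b (log2 fold change 0.22 with a standard error of 0.17, limma adjusted p = 0.710). Psmc2 varied least, at 56.3 and 56.8 FPKM in the B-1a libraries against 60.1 and 60.2 FPKM in those of B-1b, and its difference was larger than the spread between replicates although the shared spread of limma gave it an adjusted p of 0.849. Psmc1 was at 54.1 and 60.03 FPKM in the B-1a libraries against 63.3 and 61.3 FPKM in those of B-1b. In these 3 genes the B-1b libraries lay above those of B-1a. Psmc6, the lowest ATPase, went the other way, at 27.7 and 29.4 FPKM in the B-1a libraries against 23.9 and 26.4 FPKM in those of B-1b (log2 fold change -0.18, limma adjusted p = 0.730). Psmc3, the highest, was at 74.7 and 91.5 FPKM in the B-1a libraries against 72.3 and 94.1 FPKM in those of B-1b, which overlap.

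Psmd2, a scaffold of the base that binds the carriers of ubiquitinated proteins, had the smallest p of all 45 genes. It lies on chromosome 16 (20651652 to 20663414), and its level was 63.6 and 68.9 FPKM in the B-1a libraries against 84.3 and 77.8 FPKM in those of B-1b. Both B-1b libraries lay above both B-1a libraries, with a log2 fold change of 0.29 (standard error 0.15, 95% interval -0.11 to 0.69, adjusted p = 0.616 from limma). Psmd1, the other large scaffold, was at 41.0 and 42.2 FPKM in the B-1a libraries against 46.0 and 48.2 FPKM in those of B-1b (log2 fold change 0.18 with a standard error of 0.14, limma adjusted p = 0.714). Psmd11 of the lid was at 62.1 and 60.2 FPKM in the B-1a libraries against 63.7 and 66.9 FPKM in those of B-1b, again without overlap.

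Psmd14, the enzyme of the lid that removes ubiquitin chains, was at 101 and 90.5 FPKM in the B-1a libraries against 90.4 and 123 FPKM in those of B-1b, so that only 1 B-1b library exceeded B-1a. Psmd8, the highest of the genes grouped with the lid, was at 81.7 and 136 FPKM in the B-1a libraries against 90.04 and 107 FPKM in those of B-1b, which overlap. Psmd5, a chaperone of the ATPase ring, was at 7.74 and 7.77 FPKM in B-1a, 7.71 FPKM in B-1b replicate 1 and 16.4 FPKM in B-1b replicate 2. Its log2 fold change of 0.49 (standard error 0.39, limma adjusted p = 0.714) came from that 1 library and was -0.01 without it.

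Summed levels overlapped between the groups in each ring, in the ATPases and in the genes grouped with the lid. The ATPases summed to 341 and 369 FPKM in the B-1a libraries against 350 and 393 FPKM in those of B-1b, and the genes grouped with the lid to 686 and 721 FPKM in the B-1a libraries against 701 and 802 FPKM in those of B-1b. The beta ring summed to 1320 and 1326 FPKM in the B-1a libraries against 1049 and 1377 FPKM in those of B-1b. The ratio of the summed core to the summed regulatory particle was 2.08 and 2.01 in B-1a and 1.66 and 1.95 in B-1b, so that both B-1b libraries lay below both B-1a libraries. The mean ratio was 2.04 ± 0.0493 in B-1a libraries and 1.80 ± 0.209 in B-1b libraries (SD, n = 2 per group), a difference of -0.239 that was close to the spread of B-1b. On the log2 scale the ratio of the group means was -0.18, and without B-1b replicate 1 it was -0.07.

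Core and regulatory particle genes differed in transcript length. The longest annotated coding transcript had a median of 1183 bases over the 17 core genes and 1819 bases over the 19 regulatory particle genes. Over all genes tested, B-1b replicate 1 differed from the B-1a mean by a median of -0.30 on the log2 scale for 500 genes under 1000 bases and by 0.22 for 3057 genes of 3000 bases or more. In B-1b replicate 2 the same medians were 0.10 and 0.04. The 7 proteasome genes under 1000 bases had medians of -0.33 and 0.16 in the 2 libraries, and the 27 genes from 1000 to under 2000 bases had medians of -0.11 and 0.16, where all genes of that length had -0.04 and 0.13. The part of length in the differences of the core was not tested.

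**Figure D4:**
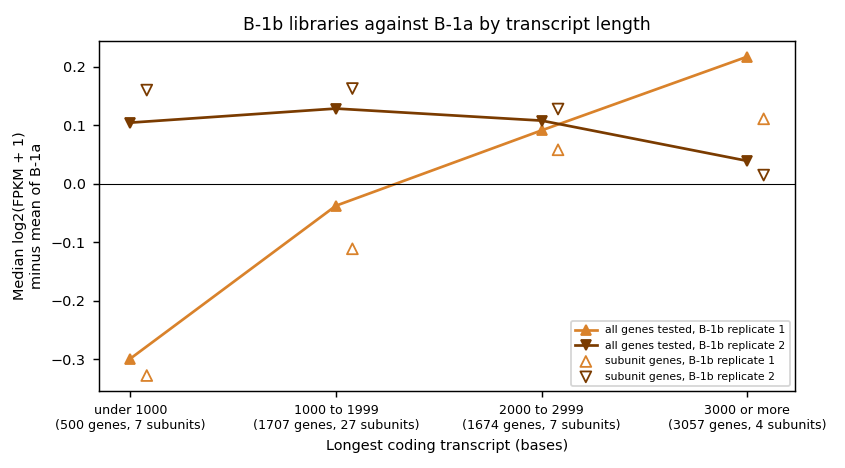
Median difference of each B-1b library from the B-1a mean on log2(FPKM + 1), by the length of the longest coding transcript, for all genes tested (filled symbols, lines) and for the proteasome genes of that class (open symbols). In B-1b replicate 1 the median over all genes goes from -0.30 for short to 0.22 for long transcripts, and that over the proteasome genes from -0.33 to 0.11.

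The activators open the core without ubiquitin or ATP. Psme1 and Psme2 build a ring together and are induced by interferon. Psme1 was at 127 and 141 FPKM in the B-1a libraries against 117 and 150.2 FPKM in those of B-1b, which overlap (log2 fold change -0.02). Psme2 was at 153 and 213 FPKM in the B-1a libraries against 207 and 214 FPKM in those of B-1b (log2 fold change 0.22 with a standard error of 0.22, limma adjusted p = 0.753). Psme3, an activator of the nucleus, was at 66.2 and 78.4 FPKM in the B-1a libraries against 85.1 and 80.05 FPKM in those of B-1b, higher in both B-1b libraries (log2 fold change 0.19 with a standard error of 0.16, limma adjusted p = 0.725). Psme4 was at 5.91 and 6.62 FPKM in the B-1a libraries against 7.52 and 4.35 FPKM in those of B-1b, and Psmf1, an inhibitor of the core, at 14.4 and 13.5 FPKM in the B-1a libraries against 14.8 and 12.2 FPKM in those of B-1b. In both of these the B-1b libraries enclosed those of B-1a.

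The chaperones Psmg1 to Psmg4 assemble the alpha ring, and their means over the 4 libraries ran from 20.7 FPKM for Psmg3 to 50.9 FPKM for Psmg4. Psmg4 was at 49.5 and 59.0 FPKM in the B-1a libraries against 37.4 and 57.8 FPKM in those of B-1b (log2 fold change -0.21 with a standard error of 0.27, limma adjusted p = 0.805). Psmg3 was at 18.6 and 23.0 FPKM in the B-1a libraries against 18.8 and 22.3 FPKM in those of B-1b. All 4 chaperones were higher in B-1a replicate 2 than in B-1a replicate 1 (51.8% of all genes tested) and in B-1b replicate 2 than in B-1b replicate 1, and none separated the groups.

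Behind these gene values stood 112 rows, which the table does not identify beyond the gene name. Of the 46 genes, 30 had several rows, up to 6. In 4 of the 30 (Psmd2, Psmd8, Psmf1 and Psmg1) the row with the highest value was not the same in all libraries, against 44.1% of all names with several rows. In 2 of them, Psmd8 and Psme2, rows of at least 5 FPKM moved in opposite directions by at least 1 on the log2 scale, against 6.97% of all such names. Of 90 rows with at least 5 FPKM in a library, 5 were higher by at least 1 without overlap (8.39% of all such rows) and 3 lower (5.06%), and all 3 of the lower rows belonged to Psmd8.

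In Psmd2 the rows followed the replicate number and not the subset. Its first row was at 22.1 and 68.8 FPKM in the B-1a libraries against 29.4 and 77.7 FPKM in those of B-1b, and its second at 41.5 and 0.0878 FPKM in the B-1a libraries against 55.0 and 0.0768 FPKM in those of B-1b. The second row thus carried most of the level in both replicates numbered 1 and almost none in those numbered 2, while the sum of the rows stayed between 63.6 and 84.3 FPKM. In Psmd8 each library had its own leading row. The second row was at 21.4 and 114 FPKM in the B-1a libraries against 1.79 and 0.745 FPKM in those of B-1b, the third at 68.1 FPKM in B-1b replicate 1 and the fourth at 95.4 FPKM in B-1b replicate 2, and the gene as a whole overlapped between the groups. In Psme2 the second row was at 0.906 and 0.690 FPKM in the B-1a libraries against 23.6 and 21.0 FPKM in those of B-1b, a log2 difference of 3.70, and its first row was at 93.1 and 163 FPKM in the B-1a libraries against 98.7 and 136 FPKM in those of B-1b. This second row lay apart by subset with replicates close to each other, and it held a small part of the gene's level.

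**Figure D5:**
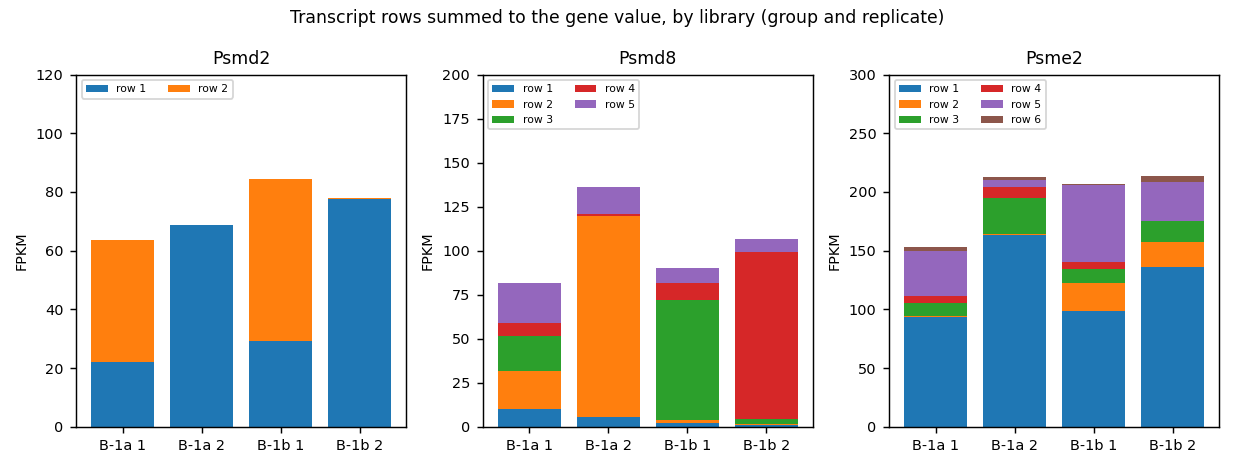
FPKM of the transcript rows of Psmd2, Psmd8 and Psme2 in each library, stacked so that the bar's height is the gene value (the key numbers rows as they stand in the table). Psmd2 switches rows with the replicate number, Psmd8 is led by the fifth or second row in B-1a and the third or the fourth in B-1b, and the second row of Psme2 is seen in B-1b.

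None of the lists of other genes in the pathway held a called gene in limma, and at an unadjusted p under 0.05 each of the 5 lists held 1 gene, where the share over all genes tested was 9.66%, among them Rad23b, Rps27a, Ubxn1 and Tap1. Of 16 tested partners of the proteasome (shuttles, deubiquitinases, regulators and others, among them the subunits Adrm1 and Sem1), 10 had a log2 fold change above 0 and 6 below. Their median was 0.12, and 0 passed an adjusted p of 0.05 in limma. Over all genes tested, 56.2% were above 0, with a median of 0.05. Rad23b, which carries ubiquitinated proteins to the proteasome, was at 12.9 and 13.8 FPKM in the B-1a libraries against 7.01 and 8.90 FPKM in those of B-1b (log2 fold change -0.69, limma adjusted p = 0.418). Nfe2l1, the factor named above, was at 3.23 and 2.52 FPKM in the B-1a libraries against 5.32 and 24.8 FPKM in those of B-1b (log2 fold change 1.73, limma adjusted p = 0.571), and leaving out B-1b replicate 2 gave 0.71, leaving out the other 2.74. Rad23b was lower and Nfe2l1 higher in both B-1b libraries than in both B-1a libraries. Of the 16 partners, 2 were lower in this way (17.3% of all genes tested) and 5 higher (25.8%).

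The ubiquitin genes and the enzymes that charge ubiquitin had 4 of 6 above 0 and a median of 0.13, with 0 called. As stated, 56.2% of all genes tested were above 0, with a median of 0.05. Rps27a, which encodes ubiquitin fused to a ribosomal protein, had lower values in both B-1b libraries. It was at 596 and 583 FPKM in the B-1a libraries against 325 and 167 FPKM in those of B-1b (log2 fold change -1.33, limma adjusted p = 0.395), and leaving out B-1b replicate 2 gave -0.86. Of 8 genes of the p97 segregase, which pulls ubiquitinated proteins out of membranes and complexes, 6 were above 0 (median 0.11). Ubxn1, a cofactor of p97, was at 73.2 and 79.03 FPKM in the B-1a libraries against 31.5 and 39.3 FPKM in those of B-1b (log2 fold change -1.09 with a standard error of 0.18, limma adjusted p = 0.239). Ubxn4, a cofactor at the endoplasmic reticulum, was at 13.8 and 15.1 FPKM in the B-1a libraries against 18.9 and 18.7 FPKM in those of B-1b.

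Peptides from the proteasome are loaded onto MHC class I by a further group. Of its 8 genes, 5 were above 0 (median 0.33), against 56.2% of all genes tested (median 0.05), and 0 were called. Tap1, the peptide transporter subunit beside Psmb9, was at 64.4 and 72.6 FPKM in the B-1a libraries against 31.5 and 36.05 FPKM in those of B-1b (log2 fold change -0.9998 with a standard error of 0.16, limma adjusted p = 0.239). Canx, a chaperone of the class I chain, was at 77.6 and 68.1 FPKM in the B-1a libraries against 104 and 89.1 FPKM in those of B-1b. Of 7 interferon regulators 3 were above 0 (median -0.01). Nlrc5, an activator of class I genes, was at 1.89 and 0.0122 FPKM in the B-1a libraries against 4.87 and 2.28 FPKM in those of B-1b. Psmb8 and Tap1 were each lower in both B-1b libraries, while Psmb9 and Irf1 were not.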

How the data were processed

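The values the authors deposited, 6 columns of FPKM for 13747 rows, were made by aligning to GRCm38/mm10 with HISAT2 and quantifying with StringTie. They used Ballgown for differential expression. Their versions, the annotation and any row filter: not given in the sources used here. Named as raw read counts, the table holds values that are not whole, and FPKM is an inference from the tools. Whole reads could not be recovered (at best 38.5% to 48.0% of low values were within 0.1 of a whole read, where values without steps give 20%), so counting error is unknown. There are 0 further sample columns. FPKM were summed over the rows of a name, names reaching 1 FPKM in 2 of 4 libraries were kept, and log2(FPKM + 1) compared as B-1b over B-1a with limma 3.58.1 in R 4.3.3 (intensity trend, Benjamini-Hochberg over 7557 genes). The limma fit was tested on simulated data. Replicates numbered 3 were not used. They kept their relation to the others in 13722 rows (B-1b) and 13710 rows (B-1a, relative tolerance 1e-06). Coordinates, lengths and overlaps come from GENCODE M21. Of the members, 11 overlap another coding gene. Sums and figures were made in Python 3.11.15 with pandas 2.3.3.

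The members and lists were chosen with earlier results of these data known. Genes were named by a rule: the catalytic subunits, activators and inhibitor, the 6 members per direction with the smallest p, the highest and lowest of each subcomplex, members whose rows moved apart, and the 2 genes per other list with the smallest p. Of the genes so chosen, some are not reported here, nor is 1 promoter pattern. Psma6, Psma7, Psmb1, Psmb3, Psmb4, Psmc1, Psmc2, Psmd10, Psmd11, Psmd14, Adrm1, Sem1 and Irf1 were named after their values were seen, as was the ratio of core to regulatory particle chosen. The alternatives were other filters, pseudocount, scalings, columns, row handling and fits, the replicate number as a block, and each library left out in turn.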

Additional observations from a re-analysis of the deposited data

How the results depend on the processing

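The number of libraries limits every statement, since 0 genes of the whole table passed an adjusted p of 0.05 with any 1 library left out, with a linear model per gene, or with the replicate number as a block (limma). Unadjusted p-values under 0.05 were then held by 538 to 1127 genes with a library left out, 657 with the linear model and 614 with the block. Where a group kept 1 library, that library was assumed to vary like the other group. The numbers pair 2 samples at most, and deviations of same-numbered libraries correlated at 0.00124 across 7557 genes and at 0.302 across the 45 members. The 15 genes called became 7 without the filter, 9 without the trend, 8 with the largest row per name and 1241 with all 6 columns as deposited, which count the derived columns as libraries. There 1 proteasome gene was called, Psmd2 (log2 fold change 0.31). No other setting called a member. With equal upper quartiles 3 core genes were above 0 and the regulatory particle had a median of 0.0431. With the largest row per name the sum over the genes grouped with the lid was -0.0544 (log2). Leaving out each library in turn, the genes above 0 ranged from 15 to 36 over all members, from 2 to 13 in the core and from 9 to 16 in the regulatory particle. The medians ranged from -0.0936 to 0.15 over all members, from -0.32 to 0.16 in the core and from -0.00780 to 0.18 in the regulatory particle. The log2 ratios of sums ranged from -0.28 to 0.19 (alpha ring), from -0.33 to 0.0581 (beta ring) and from -0.30 to -0.0656 (core over regulatory particle). Among the tested members with values per library given in the text, the sign changed in single settings for Psma2 (-0.0287 with equal upper quartiles, -0.0530 with all 6 columns), Psmb9 (-0.0131 with equal upper quartiles, -0.11 with the largest row), Psmc3 (0.0693) and Psme2 (-0.0893) with the largest row, and Psme4 (0.00721 with all 6 columns). It also changed with a library left out, over ranges of log2 fold change of -0.32 to 0.17 (Psma1), -0.18 to 0.22 (Psma2), -0.36 to 0.20 (Psma6), -0.22 to 0.45 (Psma7), -0.39 to 0.15 (Psmb1), -0.45 to 0.0926 (Psmb3), -0.94 to 1.13 (Psmb4), -2.26 to 0.52 (Psmb5), -0.33 to 0.21 (Psmb6), -0.23 to 0.30 (Psmb9), -0.32 to 0.16 (Psmb10), -0.19 to 0.18 (Psmc3), -0.00780 to 0.99 (Psmd5), -0.47 to 0.26 (Psmd8), -0.0822 to 0.36 (Psmd14), -0.20 to 0.16 (Psme1), -0.0150 to 0.46 (Psme2), -0.44 to 0.23 (Psme4), -0.18 to 0.0800 (Psmf1), -0.16 to 0.13 (Psmg3) and -0.52 to 0.10 (Psmg4). The causes were not tested. Psmb8, Psmd2, Psmd1, Psmc4, Psmc6, Psma3, Psmb7 and Psme3 kept their sign in every setting run, but Psma3 was at -0.00591 with the largest row, and with a library left out the value nearest 0 was -0.0692 for Psma3, -0.0522 for Psmb7, -0.11 for Psmc6, 0.0807 for Psmc4 and 0.0730 for Psme3.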
